A study of Mus musculus with 4 samples.

Results

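The FOXO transcription factor genes Foxo1 and Foxo3, the PI3K catalytic subunit genes Pik3ca and Pik3cd, the AKT kinase genes Akt1 and Akt2, the TSC complex genes Tsc1 and Tsc2 and the kinase gene Mtor were examined for N6-methyladenosine (m6A) in mouse c-Kit+ cells. The 9 genes were taken as members of 1 pathway. A peak was given to a gene when its summit, the position of highest signal, lay in one of the gene's annotated exons. By this rule 11 of the 15635 peaks of replicate 1 and 11 of the 14872 peaks of replicate 2 belonged to these genes. In both replicates these peaks lay in the same 6 genes, Foxo1, Foxo3, Pik3ca, Pik3cd, Tsc1 and Mtor. Akt1, Akt2 and Tsc2 had no peak in either.

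m6A meRIP-seq captures fragments of RNA with an antibody against the modified base and compares them with RNA that was not immunoprecipitated. The series holds 2 immunoprecipitation (IP) samples, with a peak list each, and 2 input samples, for which no values were analysed here. By their labels the inputs were polyA RNA and the IPs total RNA, the library that served as background is not stated, and the part of this difference in the fold over background was not tested. All came from foetal liver cells of C57BL/6 mice that had been enriched for the stem and progenitor cell receptor Kit on magnetic columns. Per the methods of the study, the cells were the control genotype, Ythdf2 fl/fl without Cre, in which the floxed allele also makes a GFP-YTHDF2 fusion protein, and the replicates were biological. There was therefore 1 group and no contrast between groups, and the values are given as a description with no test. The measurement addressed which mRNAs could be recognised through m6A by YTHDF2, a reader protein that directs its targets to decay.

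PI3K is activated below growth factor receptors such as Kit and makes a membrane lipid that recruits AKT. AKT phosphorylates FOXO factors, which keeps them out of the nucleus, and inhibits the TSC complex, which otherwise holds RHEB and thereby the kinase complex mTORC1 in check. In blood stem cells FOXO factors and TSC1 are known for their part in quiescence and protection from oxidative stress, while mTOR promotes growth and protein synthesis. m6A is placed on mRNA mainly within the motif DRACH, of which GGAC is the most favoured core, and is known to gather in long internal exons and around stop codons.

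The GGAC nearest to the midpoint of the 2 summits is shown for the 9 of 11 peaks that had a GGAC within 50 nt of the summit in either replicate, since the middle A of this core is the candidate modified base. Each sequence is the sense strand of the transcript in GENCODE M21, 5′ to 3′, with 12 nt on each side of that A and the GGAC in capitals, and the coordinates are those of GRCm38.
Pik3ca, exon 20 of 20, coding, plus strand, chr3:32462766-32462790: catggtggatGGACgacaaaaatgg
Pik3cd, exon 24 of 24, 3′ UTR, minus strand, chr4:149649762-149649786: gtgtgagcaaGGACgagaacggaat
Tsc1, exon 15 of 23, coding, plus strand, chr2:28676171-28676195: actcctccctGGACaaacatgggcc
Tsc1, exon 23 of 23, coding, plus strand, chr2:28687037-28687061: aactgggcaaGGACtcgggcacaga
Mtor, exon 58 of 58, 3′ UTR, plus strand, chr4:148557501-148557525: tttgcagcagGGACtcagaacataa
Foxo1, exon 2 of 3, coding, plus strand, chr3:52346228-52346252: ttgagcgcttGGACtgtgacatgga
Foxo3, exon 2 of 4, coding, minus strand, chr10:42275219-42275243: aagacgacgaGGACggcggcggccg
Foxo3, exon 3 of 4, coding, minus strand, chr10:42196676-42196700: ccagtgacttGGACctggacatgtt
Foxo3, exon 4 of 4, 3′ UTR, minus strand, chr10:42186220-42186244: ctcagcaagtGGACagtgatccgtt
Of these 9 sites 6 lay in coding sequence and 3 in a 3′ UTR. In 5 of the 6 coding sites the A was the second base of its codon. The full DRACH motif was met at 6 of the 9 sites, whereas at the Pik3ca, Pik3cd and Foxo3 exon 2 sites a G follows the GGAC. Neither the codon base nor DRACH was counted over GGAC in general, so neither count is read as a trait of these peaks. Peaks are far wider than a motif and carry no strand, so these are the nearest matches and not mapped modified bases.

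Having a peak in both replicates was not unusual for a gene. Of 21951 protein-coding genes 6780, or 30.9%, had a summit in an exon in both replicates, 34.4% in replicate 1 and 33.5% in replicate 2, against 6 of the 9 pathway genes in each. All protein-coding genes were counted in the background, including those that c-Kit+ cells do not express, and levels of RNA were not analysed here. All 11 member peaks of replicate 1 overlapped a peak of replicate 2 and the reverse (100%, exact Clopper-Pearson 95% interval 71.5% to 100%, counting error only). The interval takes the 11 peaks as independent, although 4 of them lie in Foxo3, and the genes were a chosen list. Over all peaks with a summit in an exon the overlap was 84.2% in replicate 1 and 86.8% in replicate 2.

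The enrichment of the member peaks was moderate. Fold enrichment is the IP signal at the summit over the local background, as MACS2 computed it for the authors. Over the 11 member peaks it ranged from 2.91 to 7.87 in replicate 1, with a median of 3.40, and from 2.63 to 7.81 in replicate 2, with a median of 5.24. The medians over all exonic peaks were 4.18 and 4.39, so the members stood below the general median in one replicate and above it in the other. Member peaks were broad, with a median width of 698 bp in replicate 1 and 579 bp in replicate 2, where exonic peaks in general had 397 bp and 413.5 bp. The summits of the member peaks rested on 28 to 151 IP reads in replicate 1 and 32 to 149 in replicate 2, as computed from the deposited fold and p-value, and the median over all exonic peaks was 68 and 66.

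**Figure D1:**
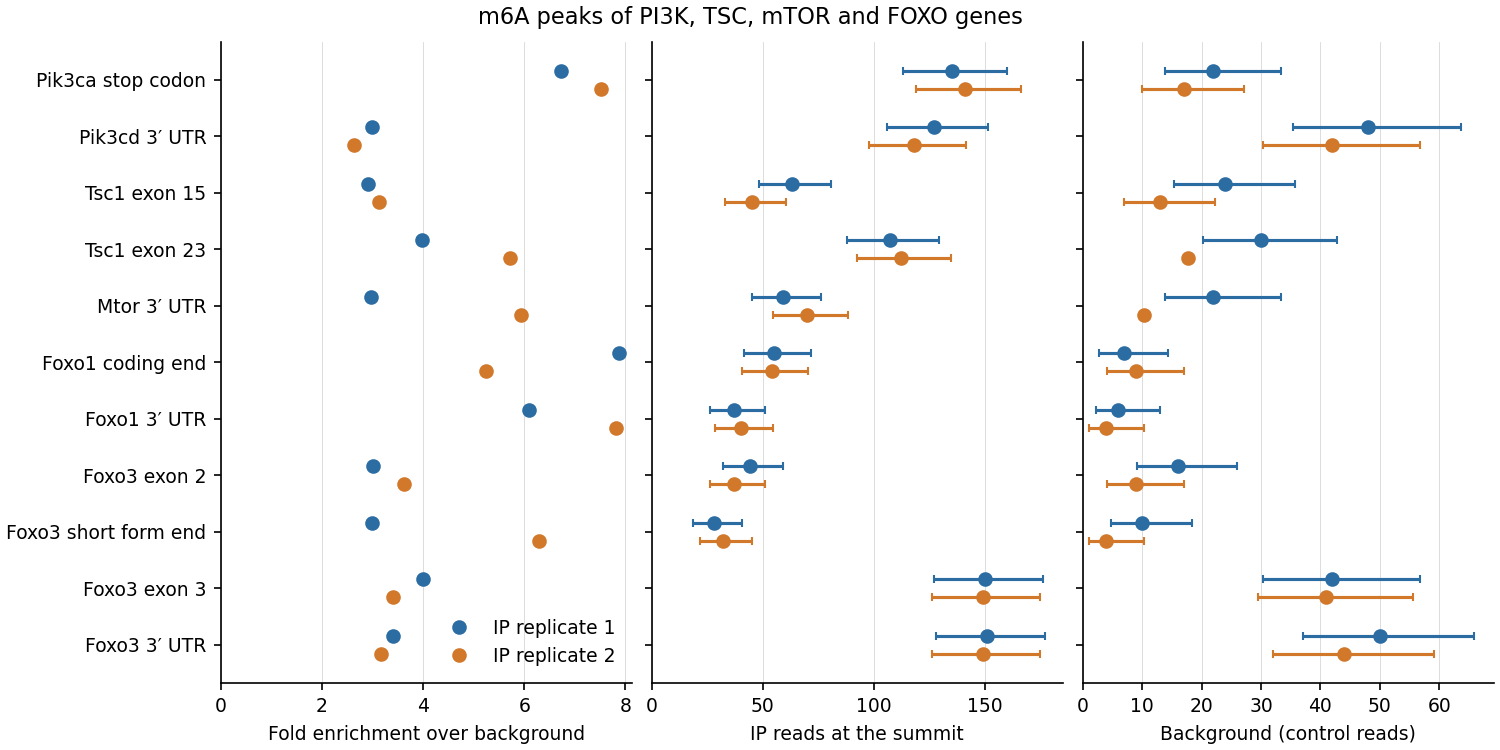
Fold enrichment (left), IP reads at the summit (middle) and background in control reads (right) for the 11 peaks of the 6 genes, with IP replicate 1 in blue and IP replicate 2 in orange. Bars are exact Poisson 95% intervals of the reads and are left out where MACS2 averaged the background over a wider window. For Mtor and the end of the short form of Foxo3 the IP reads lie close together while the background is lower in replicate 2, with overlapping bars for Foxo3. One control read stands for 0.874 IP reads in replicate 1 and 1.05 in replicate 2.

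The PI3K catalytic subunits carried 1 peak each. Pik3ca encodes p110 alpha, the widely expressed catalytic subunit, and had the most significant peak of the 9 genes. This peak spanned chr3:32462484-32462961 in replicate 1 and chr3:32462411-32463048 in replicate 2, over the stop codon in the last exon. Its fold enrichment was 6.73 in replicate 1 and 7.51 in replicate 2, and its −log10 q was 60.8 and 65.9. Both replicates placed it among the strongest peaks of the whole list by q, above 99.1% of exonic peaks in replicate 1 and 99.5% in replicate 2, although by fold it stood above only 81.8% and 83.2%. The summits lay 40 nt and 34 nt upstream of the stop codon and 6 nt from each other, with a GGAC 11 nt and 17 nt further upstream. The last exon of Pik3ca is 5926 nt long, longer than that of 97.4% of protein-coding genes, and no other part of it had a peak, although 19 of the 28 GGAC of the transcript lie in this exon.

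Pik3cd encodes p110 delta, the catalytic subunit that is typical of blood cells. Its peak ran from upstream of the stop codon far into the 3′ UTR, at chr4:149649511-149650818 in replicate 1 and chr4:149649497-149650793 in replicate 2. The summits were in the distal part, 855 nt and 825 nt beyond the stop codon. Fold enrichment was 2.98 and 2.63, the second of these the lowest value of any member peak. The −log10 q of 22.5 and 15.8 rested on 127 and 118 IP reads (exact Poisson 95% interval 106 to 151 and 97.7 to 141) over a background of 48 and 42 control reads. A broad stretch of low enrichment was thus measured with many reads in both replicates, and at 1308 bp and 1297 bp it was the widest peak of the members. It held 10 GGAC in the exonic bases that both replicates covered.

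No peak was found in the AKT kinases, which act directly below PI3K. Akt1 (chr12:112653821-112674884, minus strand) and Akt2 (chr7:27591552-27640826, plus strand) had no summit in any exon in either replicate, nor did any peak touch their exons. Their transcripts were not poor in the core motif, since Akt1 holds 20 GGAC in 2690 nt and Akt2 27 in 4544 nt. The 7.43 GGAC per kb of Akt1 is higher than in 93.3% of protein-coding genes. Akt2 has a last exon of 2765 nt with 16 GGAC, longer than the last exon of Pik3cd, which did carry a peak. A gene without a peak can lack the mark or lack the reads to show it, and these lists do not tell the 2 apart.

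Of the TSC complex, Tsc1 had 2 peaks and Tsc2 none. Tsc1 encodes hamartin, which stabilises the complex, and Tsc2 encodes tuberin, the subunit that acts on RHEB. The first Tsc1 peak (chr2:28675978-28676436 in replicate 1 and chr2:28675994-28676408 in replicate 2) lay in coding exon 15, which is the longest internal exon of the transcript with 559 nt. Its fold enrichment was 2.91 and 3.13 and its −log10 q 10.54 and 7.56, with summits 8 nt apart and a GGAC 14 nt and 6 nt downstream. This was the weaker peak of Tsc1 in both replicates.

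The second Tsc1 peak (chr2:28686563-28687325 and chr2:28686800-28687353) lay over the end of the coding sequence in the last exon, with summits 75 nt and 148 nt upstream of the stop codon. Fold enrichment was 3.97 in replicate 1 and 5.72 in replicate 2, and −log10 q was 28.5 and 41.5. The IP reads were close, 107 and 112, while MACS2 set the background at 30 and 17.8 control reads. The replicates differed by 1.44-fold, and 22.2% of all shared peaks were at least as far apart.

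Tsc2 (chr17:24595816-24632630, minus strand) had no summit in an exon in either replicate. Its transcript of 5598 nt is nearly all coding, with a 3′ UTR of 84 nt and a last exon of 246 nt that contains no GGAC. Only 9.97% of protein-coding genes have a shorter last exon. Tsc2 does have 34 GGAC upstream and an internal exon of 491 nt, and no peak was found at any of these. Over genes in general, those with a peak in both replicates had a median last exon of 1598.5 nt and the others 945 nt, a gap that also goes with the length of the transcript (3341.5 nt and 2175 nt).

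**Figure D2:**
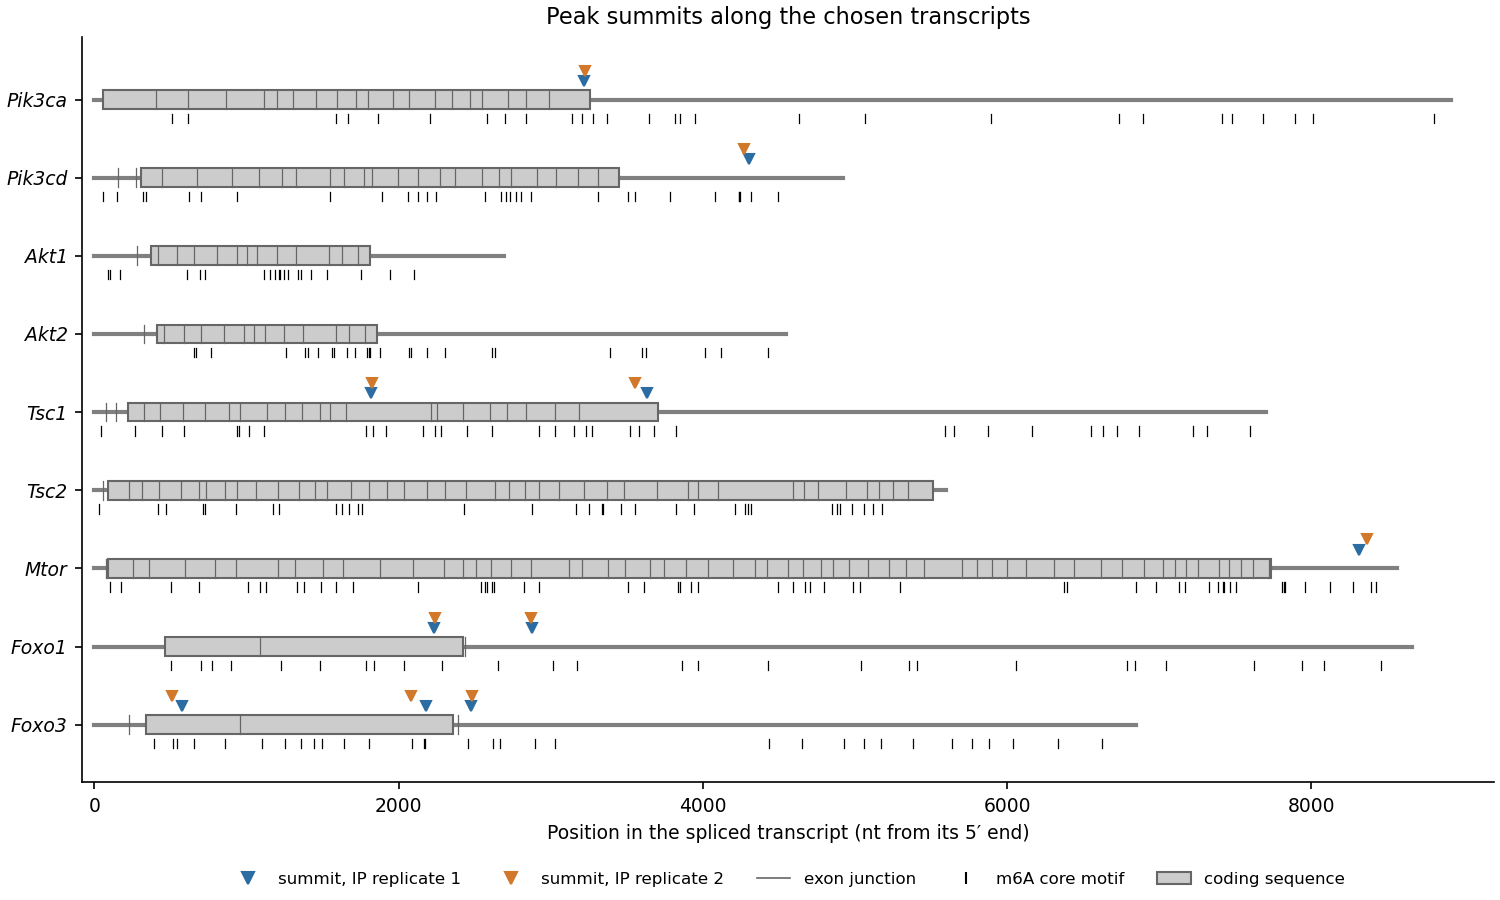
Summits of IP replicate 1 (blue) and IP replicate 2 (orange) along the spliced transcript with the longest coding sequence of each of the 9 genes, in nt from its 5′ end. Grey boxes are coding sequence, thin lines across them exon junctions, and black ticks below the GGAC positions. The peak of the short form of Foxo3 lies outside the transcript drawn and is not shown. Akt1, Akt2 and Tsc2 have motif positions but no summit.

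Mtor, the kinase of both mTOR complexes, carried 1 peak, with its summit in the 3′ UTR. The peak spanned chr4:148556775-148557537 in replicate 1 and chr4:148556752-148557588 in replicate 2, over nearly all of the last of 58 exons. The summits were 574 nt and 626 nt beyond the stop codon. Fold enrichment was 2.97 in replicate 1 and 5.93 in replicate 2, and −log10 q was 10.2 and 27.1. The replicates were thus 1.998-fold apart, and 4.79% of all 11524 one-to-one pairs of shared peaks were at least as far apart. The IP reads were 59 (exact Poisson 95% interval 44.9 to 76.1) and 70 (54.6 to 88.4), so that they overlapped within counting error, while the background, in control reads, was 22 and 10.4. The presence of the peak therefore held in both replicates and its height did not. The coding sequence of Mtor, 7647 nt in length and the longest of the 9, had no summit in either replicate.

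The FOXO genes had 6 of the 11 member peaks. Foxo1 and Foxo3 share a gene structure in which the coding sequence ends in a long internal exon, of 1352 nt in Foxo1 and 1436 nt in Foxo3. The last exon that follows is all 3′ UTR. In Foxo1 the first peak (chr3:52345245-52346317 and chr3:52345430-52346348) lay at the end of that coding exon, with summits 187 nt and 183 nt upstream of the stop codon. Its fold enrichment was 7.87 in replicate 1, the highest of any member peak, and 5.24 in replicate 2, with −log10 q of 29.7 and 18.8. The summits fell 4 nt apart, and the 55 and 54 IP reads were nearly equal, over 7 and 9 control reads.

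The second Foxo1 peak (chr3:52346849-52347546 and chr3:52347060-52347562) lay in the 3′ UTR, 456 nt and 448 nt beyond the stop codon. Fold enrichment was 6.09 and 7.81, and −log10 q was 16.4 and 21.1. This was one of the 2 member peaks without a GGAC within 50 nt of the summit in either replicate, the nearest being 137 nt and 145 nt away, and the exonic bases covered in both replicates held 1 GGAC in 487 nt. The 2 Foxo1 peaks had changed places in order of fold between the replicates, so neither was the stronger beyond the spread.

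Foxo3 had 4 peaks in each replicate, which 3.61% of the genes with a peak in both replicates reached or exceeded. At least 2 peaks, as in Foxo1 and Tsc1, were seen for 35.2%. These counts are of peaks on the genome, where introns separate the exons. Neighbouring exons hold the last 2 Foxo3 peaks, and likewise the 2 Foxo1 peaks. Whether either pair is a single stretch of the spliced RNA was not tested. From the 5′ end, the first Foxo3 peak (chr10:42275046-42275444 and chr10:42275044-42275622) lay in the coding part of exon 2, 237 nt and 171 nt after the start codon. Its fold enrichment was 3.005 and 3.62 and its −log10 q 7.65 and 8.16. It was a small peak in both replicates, above only 19.7% and 21.4% of exonic peaks by q. This stretch has 4 GGAC in 399 nt, a dense run beside the 4.67 per kb of the whole transcript.

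The second Foxo3 peak was at the end of a short form. It spanned chr10:42247546-42247857 in replicate 1 and chr10:42247544-42247846 in replicate 2, in an exon of 356 nt that belongs to 1 of the 4 transcripts of the basic annotation and lies in an intron of the longer ones. That transcript has 244 codons where the full-length form has 672. The summits lay 21 nt upstream and 13 nt downstream of the stop codon of the short form. Fold enrichment was 2.98 in replicate 1 and 6.29 in replicate 2, the largest gap of any member peak at 2.11-fold, and 3.54% of all shared pairs were at least as far apart. The IP reads were 28 (18.6 to 40.5) and 32 (21.9 to 45.2), the lowest of the members, over a background of 10 and 4 control reads. The intervals of the background, 4.80 to 18.4 and 1.09 to 10.2, overlapped as well. No GGAC lay in the 241 exonic bases that both replicates covered. Whether these reads came from the short form or from unspliced RNA of the longer forms cannot be told from a peak list.

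The remaining Foxo3 peaks stood on either side of the stop codon and had the most reads of all member peaks. The third peak (chr10:42196522-42197563 and chr10:42196532-42197690) covered most of the long coding exon 3, with summits 175 nt and 275 nt upstream of the stop codon. Its fold enrichment was 4.01 and 3.40 and its −log10 q 40.2 and 30.2, from 150 and 149 IP reads over 42 and 41 control reads. It contained 8 GGAC in 1032 shared bases, and the 2 summits, 100 nt apart, each lay within 10 nt of one of them.

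The last (chr10:42185908-42186456 and chr10:42185888-42186459) was in the last exon, 121 nt and 130 nt beyond the stop codon. Fold enrichment was 3.40 and 3.17, and −log10 q was 32.7 and 27.3, from 151 and 149 IP reads. With 1.07-fold between the replicates it was among the closest pairs of the members. By fold the 2 peaks around the stop codon of Foxo3 were lower than both Foxo1 peaks in each replicate. By q these 2 Foxo3 peaks were above both Foxo1 peaks in each replicate.

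The FOXO1 and FOXO3 proteins encoded by these transcripts are 652 and 672 residues long and, aligned end to end, were identical at 51.1% of 618 aligned positions. The Foxo1 GGAC at the coding end lies in codon 608, which aligned with codon 620 of Foxo3, and the Foxo3 GGAC of exon 3 lies in codon 611, which aligned with codon 600 of Foxo1. The peak was therefore at the same end of both proteins, but the GGAC nearest to the midpoint of the summits were not at aligned codons. In Foxo3 exon 3 that GGAC lay 10 nt upstream of the summit of replicate 1 and 90 nt downstream of that of replicate 2. Other GGAC were nearer to each summit, 4 nt upstream and 9 nt downstream, and their codons were not compared. The other pairs shared less of their peaks. Pik3ca and Pik3cd, 41.7% identical over 1031 aligned residues, had their single summits at the stop codon and in the 3′ UTR, and Akt1 and Akt2, 82.0% identical over 479, had none.

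**Figure D3:**
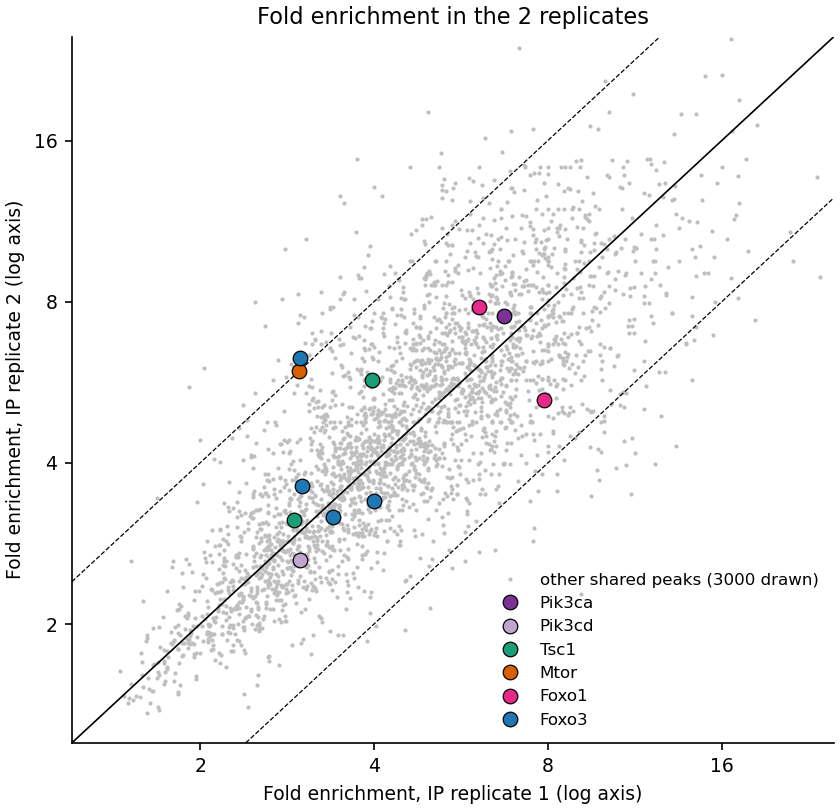
Fold enrichment of shared peaks in IP replicate 1 against IP replicate 2, both on log axes, with the 11 member peaks as coloured points and 3000 of the 11524 one-to-one pairs in grey. The solid line marks equal values and the dashed lines a 2-fold difference. The Foxo3 short form peak lies beyond the upper dashed line, the Mtor peak on it, and the other 9 member peaks between the lines.

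Between the replicates, fold enrichment of the 11 member peaks differed by a median log2 of 0.16 (replicate 2 over replicate 1) with an SD of 0.51, against 0.02 and 0.47 over all 11524 pairs. A difference of more than 2-fold was seen for 4.77% of all pairs and for the Foxo3 short form peak among the members. Of the 11 member peaks 7 were higher in replicate 2, as were 51.6% of all pairs. Member summits lay a median of 30 nt apart and those of all pairs 16 nt.

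Member summits lay in last exons or in long internal exons. In each replicate 7 of the 11 summits lay in the last exon of their transcript, where 61.6% of all placed summits lay in replicate 1 and 61.1% in replicate 2. The 7 include the summit of the short form of Foxo3, which is not among the placed summits. The other 4 lay in internal exons of 400 nt or more, and 25.9% and 25.7% of placed summits lay in internal exons of any length. The share of placed summits in internal exons of 400 nt or more was not counted, so neither place is read as particular to the members. Within 200 nt of the stop codon lay 6 member summits in replicate 1 and 5 in replicate 2, the short form of Foxo3 counted at its own stop codon, against 30.7% and 29.8% of all placed summits. A GGAC was within 50 nt of 8 summits in replicate 1 and 9 in replicate 2. That compares with 57% of placed summits in replicate 1 and 56.7% in replicate 2, and with 32.7% of all positions in the chosen transcripts. DRACH, a looser motif, was within 50 nt of 9 and 11 of the member summits, but also of 93.9% of placed summits in each replicate and of 87.0% of all transcript positions. In 9 of the 11 peaks the shared bases held more GGAC per kb than the whole transcript of the gene, the exceptions being the second peaks of Foxo1 and Foxo3. The same count was not made over all shared peaks, so it is not read as particular to the members.

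The median transcript was 8133 nt in the 6 genes with a peak against 4544 nt in the 3 without and the median last exon 4484.5 nt against 957 nt. The ranges overlapped, since Pik3cd, with a peak, has 4921 nt and Tsc2, without one, 5598 nt. The median density of GGAC was 4.67 per kb in the members with a peak and 6.07 per kb in those without, with Pik3cd (6.10) and Mtor (6.31) above Akt2 (5.94) and Tsc2 (6.07). Over all protein-coding genes the order of the medians was the opposite, 4.27 per kb with a peak in both replicates and 3.85 per kb without. Mtor and Akt2 did not follow the order of last exons, since Mtor had a peak with a last exon of 839 nt and Akt2 had none with 2765 nt.

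To place these genes within their pathway, 111 further genes of PI3K, AKT, TSC, mTOR and FOXO signalling were read by the same rule. Of these, 65 (58.6%) had a summit in both replicates, 12 in 1 replicate and 34 in none, beside the 30.9% of all protein-coding genes. For the strongest peak of each gene by q, taking the lower of the 2 replicates, the median fold enrichment was 3.68 over the 6 members, 4.38 over the 65 listed genes and 4.06 over all 6780 genes with a peak in both. The folds given below for listed genes are those of the strongest peak by q, taken in each replicate by itself. The folds of a gene in the 2 replicates can therefore come from different peaks. For Rictor, Pik3r4 and Pik3r5 the summits lay in different regions of the transcript in the 2 replicates.

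Upstream of PI3K, 5 of 7 receptors and adaptors had a peak in both replicates, and Irs1 and Irs4 had none. Irs2, an insulin receptor substrate, had one of the highest folds with 8.31 and 9.36 (8.84 ± 0.74, mean ± SD, n = 2) and 6 and 5 peaks. The insulin receptor gene Insr reached 9.10 and 7.62. Of the other PI3K catalytic subunits 4 of 5 had a peak in both, led by Pik3c2b (9.94 and 7.62), and only Pik3c3 had none. Pik3cb and Pik3cg, the remaining class I subunits beside Pik3ca and Pik3cd, gave 3.42 and 3.57 and 5.26 and 5.26. All 4 class I catalytic genes thus carried a peak in both replicates. By the fold of the strongest peak by q, Pik3ca was the highest of these in each, and further peaks of Pik3cg were not compared.

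The group of PI3K regulatory subunits also holds Pik3ap1 and Pik3ip1, which encode PI3K-interacting proteins and not subunits. Of this group 4 of 8 had a peak in both replicates, with Pik3r5 at 6.90 and 10.48 and Pik3r4 at 7.44 and 4.34. Pik3r6 had a peak only in replicate 1 (5.82), Pik3ap1 (3.54) and Pik3ip1 (4.53) only in replicate 2, and Pik3r3 had none. Phosphatases that remove the products of PI3K had peaks in both replicates for 5 of 7, and Inpp4a and Inpp4b had none.

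Around AKT, 4 of 10 kinases and regulators had a peak in both replicates, and Gsk3a and Tcl1 were among those with none. Phlpp1, a phosphatase that switches AKT off, ranked next to the top of the list with 11.9 and 14.8, and the AKT inhibitor Trib3 had 7.08 and 13.97. Sgk1 (6.48) and Sgk3 (2.12) had a peak in replicate 1 alone and Pdpk1, the kinase that activates AKT, in replicate 2 alone (2.55). The absence of peaks in Akt1 and Akt2 was therefore not shared by all genes around them.

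In the group of the TSC complex and RHEB, Rheb had a peak at its start codon in both replicates (6.52 and 8.10), while Tbc1d7, the third subunit of the complex, and Rhebl1 had none. Thus of the 3 TSC complex genes only Tsc1 carried a peak. Among the other mTOR complex subunits 5 of 8 had a peak in both replicates and none was without any. Rictor, which defines mTORC2, had 7.69 and 9.33, above Mtor in both replicates, and Rptor, which defines mTORC1, had 3.95 and 3.10. Deptor (6.405) and Mapkap1 (2.92) had a peak in replicate 1 alone and Prr5l (5.51) in replicate 2 alone, the Deptor summit also lying in an exon of another gene.

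Genes that carry amino acid signals to mTORC1 had a peak in both replicates for 14 of 27, and Lamtor2 (3.08) and Sesn3 (4.71) in replicate 1 alone. Among genes of energy and stress input it was 4 of 8. Prkab1, a subunit of the energy sensor AMPK, had 10.4 and 9.83 at its start codon, and Ddit4, a stress-induced inhibitor of mTORC1, had 9.83 and 6.67 at its stop codon. No peak was found for Ddit4l, Prkaa2, Prkab2 and Prkag1. Of the genes for proteins that mTORC1 acts on, 11 of 14 had a peak in both replicates, and Eif4ebp3, Rps6 and Srebf1 had none.

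Among the genes that FOXO factors are known to activate, 7 of 12 had a peak in both replicates. Klf2, a transcription factor gene, headed the list by the lower of its folds, with 16.2 and 15.7 at its stop codon, and Il7r, a cytokine receptor gene, had 8.57 and 10.9. Fbxo32 had a peak in replicate 2 alone (6.87), and Bcl6, Bnip3, Cat and Ccng2 had none. Of the other FOXO genes Foxo4 had a peak in both replicates (3.29 and 3.10) and Foxo6 had none, so that 3 of the 4 FOXO genes carried m6A peaks.

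**Figure D4:**
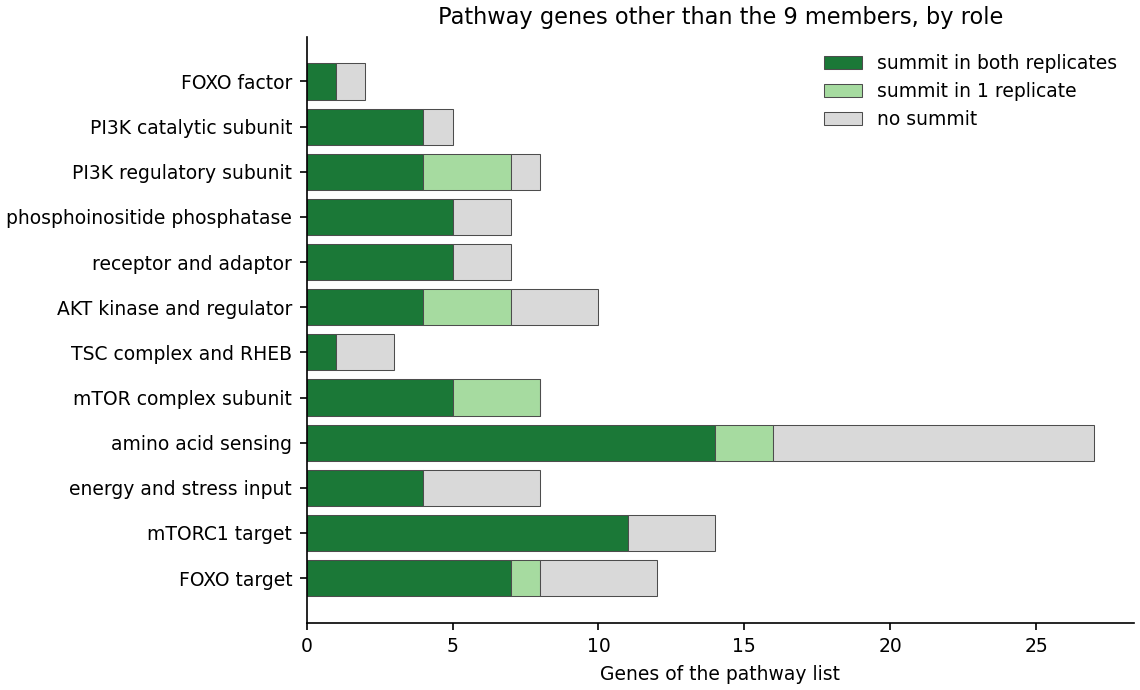
Number of genes by role among the 111 pathway genes other than the 9 members, with bars divided into genes with a summit in both replicates, in 1 replicate and in none. The role of PI3K regulatory subunits includes the interacting proteins of Pik3ap1 and Pik3ip1. The mTOR complex subunits are the only role without a gene that lacked a summit in both replicates, and amino acid sensing has the most such genes (11 of 27).

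The labelled cell type was read against marker genes by the same rule. A peak was found in both replicates for 8 of 10 stem and progenitor cell genes, with none in Kit and Myb, for 3 of 6 erythroid genes, for 2 of 5 hepatoblast genes (Hnf4a, 6.59 and 8.44, and Apoa1, 4.85 and 5.24) and for 1 of 3 macrophage genes (Csf1r, 3.56 and 3.26). A peak needs both the transcript and the mark, so these counts give neither the makeup of the cells nor the source of the member peaks, and the part of other foetal liver cells in the member peaks was not tested.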

How the data were processed

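m6A meRIP-seq peak lists of 2 IP replicates were used. The authors aligned reads to GRCm38 with HISAT2 and called peaks in each replicate with MACS2 2.1.1.20160309 (nomodel). The control library and threshold are not given in the sources used here. The deposited values are, for each peak, its start and end and the offset of its summit in bases, the fold enrichment over background (a ratio), −log10 p and −log10 q, and a score equal to the whole part of a multiple of −log10 q.

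Summits were placed in exons of the GENCODE M21 basic set. Positions were taken from the longest-coding transcript of each of 21951 protein-coding genes, and summits in no other gene's exon were called placed (10830 and 10465). Codon windows were 200 nt and motif windows 50 nt, and motifs were searched on the sense strand only. Shared peaks overlapped by at least 1 bp. Proteins were aligned with BLOSUM62 (Biopython 1.88).

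IP and background reads were solved from fold and p under MACS2's formulas. A whole number of IP reads fitted 100% of peaks within 0.0005 in −log10 p, and simulated peaks were recovered for 100% of 1948 (replicate 1) and 2082 (replicate 2). One control read stood for 0.874 and 1.05 IP reads. Intervals are exact 95% Poisson or binomial ones and cover counting error only, since PCR copies are not independent. The library totals are not known from these lists.

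The members and gene lists were chosen with earlier results of these data known. From the pathway list, the text names the 12 genes with the highest fold of their strongest peak (lower replicate), those with a peak in 1 replicate, and those without where a role has at most 5. Pik3cb, Pik3cg, Pik3r4, Rptor and Foxo4 were added after their values were seen, and some listed genes are not reported here. Alternatives were minimum fold or q, other exon sets, windows and overlaps, and each replicate alone. No test was run, since there is 1 group.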

Additional observations from a re-analysis of the deposited data

Results flagged for a closer look

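Peaks near or within the 9 genes that lay in none of their exons are listed here because their signal was outside the rule and above background. In Foxo3 a peak of replicate 1 at chr10:42274398-42274597 had its summit in an intron beside exon 2, with a fold enrichment of 3.17, 16 IP reads and no counterpart in replicate 2. Beyond the 3′ end of Pik3cd, peaks were found in an exon of the neighbouring gene Clstn1, with fold enrichments of 3.52 and 3.36 in replicate 1 and 2.62 and 4.31 in replicate 2, and the nearer summits were 693 nt and 691 nt from the end of Pik3cd. Beyond the 3′ end of Tsc2, a peak in an exon of Pkd1 had 2.99 in replicate 1 and 3.03 in replicate 2, with summits 511 nt and 453 nt from Tsc2. On the other side of Tsc2, replicate 2 alone had a peak within Nthl1 but in none of its exons, with 5.71. The lists carry no strand, and none of these was counted for a member.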

How the results depend on the processing

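The 6 genes with a peak in both replicates stayed 6 under a minimum −log10 q of 3 or 5, the comprehensive exon set, any overlap with an exon, and either replicate alone. A minimum fold enrichment of 4 changed every main count. It left 3 genes (Foxo1, Foxo3 and Pik3ca), a mean of 5 peaks per replicate in place of 11 (4 in replicate 1 and 6 in replicate 2), 60% of them shared in place of 100%, a mean of 3.5 summits per replicate near the stop codon in place of 5.5, 3 with GGAC in place of 8.5, and 40 listed pathway genes in place of 65, and the median fold became 6.19 in place of 3.80 since low values were removed. Foxo3 passed through a different peak in each replicate. With a stop codon window of 100 nt a mean of 2.5 summits per replicate remained, and with GGAC within 25 nt 4.5. With each replicate alone the median fold was 3.40 to 5.24, the higher value without replicate 1. Sharing gave no value with 1 replicate. No paired analysis was possible because the input samples have no peak list here and no groups were compared. Depth at Akt1, Akt2 and Tsc2 was not measured, so these genes may lack the mark or the reads.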
